A study of Mus musculus with 92 samples.

Results

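Cwc22 was chosen from the 13441 genes measured in mouse quadriceps because its values fell into separate lower and upper levels, 1 gene of 13441. The values that chose it are those described first, so they carry no test. The gene (ENSMUSG00000027014) lies on the minus strand of mouse chromosome 2, at chr2:77881159-77946375 of build mm10.

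RNA was measured in quadriceps muscle from 92 DOz mice, an outbred Diversity Outbred stock in which every animal has its own mixture of founder alleles. All animals had eaten standard chow for life, were about 18 to 20 weeks old and carried the single label chow, so the study has 1 group. Sex, genotype and litter were not analysed here. Associations across these 92 animals therefore describe the spread between animals and no treatment.

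The Cwc22 protein joins the spliceosome, where it binds the RNA helicase Eif4a3 and so helps place the exon junction complex on spliced RNA. That complex marks the joined exons and takes part in RNA export, translation and nonsense-mediated decay (NMD). In mice, Cwc22 is also known as the protein-coding gene of R2d, a chromosome 2 segment whose copy number differs between strains. WSB/EiJ, a founder of Diversity Outbred stocks, is known to carry many copies.

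Near-copies of Cwc22 in the reference bear on how its reads are divided, so 1 matched stretch is shown here. Both sequences come from the GENCODE M21 transcripts of build mm10, 5′ to 3′. Capitals mark the 3 bases that differ over 120. The stretch runs from position 418 to 537 of transcript Cwc22-201 and from position 31 to 150 of the Gm13691 transcript.
Cwc22: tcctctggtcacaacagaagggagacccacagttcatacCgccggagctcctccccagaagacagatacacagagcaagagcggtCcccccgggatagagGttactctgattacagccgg
Gm13691: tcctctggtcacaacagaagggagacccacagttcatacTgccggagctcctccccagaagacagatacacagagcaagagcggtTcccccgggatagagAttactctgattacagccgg

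A search of all annotated transcripts found 10 genes that share at least 200 bases with Cwc22 at an identity of 90% or more. Of these, 7 stand in a row on chromosome 2 at chr2:83955693-83993045, on the plus strand, 6.01 Mb from Cwc22. They are Gm13698, Gm13693, Gm13695, Gm13696, Gm13694, Gm13697 and Gm13691, all annotated as protein coding. Each of the 7 aligned with Cwc22 over 2514 bases at 96.9% identity, and their 7 long transcripts of 2493 bases held only 2 distinct sequences. The other 3 lie on chromosome X (Gm9218, Hdx and Gm7340) and share between 239 and 241 bases. None of the 10 was among the measured genes. Exons of Cwc22 also overlap those of Gm13727 on the same strand, which is not in the table either. Of the 3441 windows of 31 bases in Cwc22-201, 43.4% also occur in the chromosome 2 copies. A program that assigns reads by short words, as kallisto does, can divide such reads between the genes, so the level of Cwc22 is uncertain to that extent. How far the division moved it was not tested.

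Cwc22 was low in 73 animals and high in 19, which is 20.7% of the 92. The deposited values are log2 values that behave as logs of per-million values. In the 73 lower animals the log2 level ran from 2.43 through a median of 3.31 to 4.15, equal to per-million values of 5.40, 9.92 and 17.8. In the 19 upper animals it ran from 7.30 through 7.97 to 9.24, equal to per-million values of 158, 251 and 605. The levels did not overlap: the highest lower animal had 4.15 and the lowest upper animal had 7.30. No animal lay in the step of 3.15 log2 units between them, an 8.86-fold range. The medians of the levels differed by 4.66 log2 units, or 25.3-fold.

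**Figure D1:**
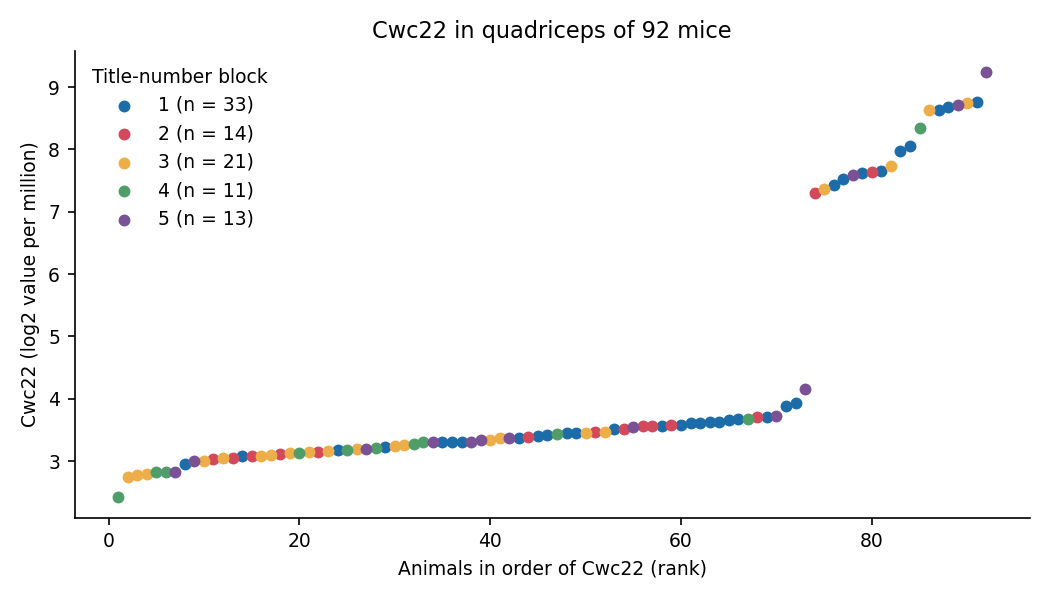
Level of Cwc22 (log2 of the per-million value, vertical axis) in each of the 92 animals, placed in order of that level (horizontal axis) and coloured by run of title numbers. The lower 73 animals end at 4.15, the upper 19 begin at 7.30, and animals of all 5 runs stand in both levels.

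A step this wide was uncommon in the table. The widest step that left at least 5 animals on each side was measured for every gene, and that of Cwc22 ranked 9 among all 13441 genes and 8 among the 11116 genes with a mean log2 value of at least 1. A step of 1 log2 unit or more occurred in 0.551% of all genes (74) and in 0.351% of those 11116 (39). The median gene had a step of 0.08. Of the 875 other chromosome 2 genes with a mean of at least 1, 3 had a step of 1 or more.

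Within each level the animals still differed. The lower animals had an SD of 0.30 log2 units (n = 73), beside a median SD of 0.29 in those animals for the 2118 genes whose mean there lay within 0.5 log2 units of Cwc22. The upper animals had an SD of 0.60 (n = 19), beside a median of 0.20 for 290 genes of like level, of which 97.2% varied less than Cwc22. From lowest to highest the span was 3.30-fold in the lower level and 3.83-fold in the upper level. The widest step inside a level was 0.31 in the lower and 0.48 in the upper.

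The labels name no batch, but the title numbers fall into 5 runs separated by gaps of more than 30. Upper animals made up 9 of 33, 2 of 14, 4 of 21, 1 of 11 and 3 of 13 animals in these runs. The sum of a library's antilog values ran from 898071 to 1140761 in the lower animals and from 943220 to 1097582 in the upper animals, so the ranges overlapped. Log2 levels of Myh4, the main fast myosin of mouse limb muscle, ran from 14.96 to 16.41 in the lower and from 15.56 to 16.30 in the upper animals. Those of Acta1, skeletal muscle actin, ran from 14.12 to 15.09 and from 14.35 to 14.94. Read depth is unknown. Markers of muscle, slow and fast fibres, fat, macrophages, endothelium, fibroblasts, Schwann cells, blood and satellite cells gave 0 of 73 measured genes (of 76 listed) associated with Cwc22 by limma, 0 also at an unadjusted p under 0.05. The shares over all genes were 0.0595% and 4.28%. The summed per-million values of the adipocyte markers ran from 531 to 2225 in the lower and from 790 to 1760 in the upper animals. Slopes were above 0 for 52 of the 73 markers, beside 49.1% of all genes. By list they were above 0 for 10 of 10 adipocyte (median 0.06), 7 of 8 macrophage, 7 of 8 endothelial, 7 of 9 slow-fibre, 5 of 6 blood, 5 of 8 fibroblast and 5 of 8 Schwann cell markers. The counts were 4 of 8 for muscle, 2 of 9 for fast fibres and 0 of 3 for satellite cells, and some genes are in both the muscle and the fast-fibre list. With marker list scores as covariates, limma called 9 genes, among them all 8 that passed without these covariates. In whole muscle, fewer cells of a type and less RNA per cell cannot be told apart.

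Across the 92 animals, 8 other genes were associated with the level of Cwc22, of 13440 tested. That is 0.0595% of the genes: 6 rose with Cwc22 (0.0446%) and 2 fell (0.0149%). The test was a limma slope of each gene on the standardised log2 level of Cwc22 with Benjamini-Hochberg adjustment, so a slope is a log2 difference per SD of Cwc22, which is 1.98 log2 units. At an unadjusted p under 0.05 the share was 4.28% (575 genes). Chromosome 2 held 4 of the 8 genes. Because Cwc22 has separate levels, these slopes rest mainly on the distance between the levels.

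By the limma t over all 92 animals, Nckap1 had the pattern most like Cwc22 (t = 10.8). On the log2(value + 1) scale Gm42764 on chromosome 5 came first, with t = 11.5 beside 10.8 for Nckap1. Nckap1 codes for a subunit of the WAVE complex, which starts branched actin growth. The gene lies 2.55 Mb beyond Cwc22 at chr2:80500512-80581380, minus strand. Its log2 level ran from 5.58 through a median of 6.14 to 6.63 in the lower animals and from 6.30 through 6.68 to 7.14 in the upper animals. The ranges overlapped, with 12 lower animals above the lowest upper animal, while 19 of 19 upper animals exceeded the lower median. The slope was 0.24 ± 0.02 (SE, n = 92, limma adjusted p = 4.79e-14), and it was positive in all 5 runs of title numbers, from 0.16 to 0.26. Slopes by run, here and for the genes below, can rest on few upper animals, with 1 of 11 in run 4 and 2 of 14 in run 2.

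Tfpi, which codes for the inhibitor of the tissue factor clotting pathway, was also higher with Cwc22. It lies at chr2:84432855-84476775, minus strand, 6.49 Mb from Cwc22 and 0.44 Mb from its chromosome 2 copies. Lower animals ran from -0.18 through 1.498 to 2.95 and upper animals from 1.83 through 2.65 to 3.38. The ranges overlapped, and 19 of 19 upper animals were above the lower median. The slope was 0.42 ± 0.06 (SE, n = 92, limma adjusted p = 6.82e-07), positive in all 5 runs. With the normal score of Cwc22 as predictor the slope of Tfpi was 0.26 and the call was lost (limma adjusted p = 0.187).

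Ssrp1 and Ddb2 were the other chromosome 2 genes past the threshold, each with a smaller t. Ssrp1, a subunit of the histone chaperone FACT, lies at chr2:85037234-85047109, plus strand. Its log2 level ran from 4.13 through 4.72 to 5.20 in the lower and from 4.26 through 4.97 to 5.30 in the upper animals, so the ranges overlapped. The upper animal at 4.26 stood apart from the next, at 4.75, and 18 of 19 upper animals were above the lower median. The slope was 0.09 ± 0.02 (SE, n = 92, limma adjusted p = 0.0146). Between the runs of title numbers it went from -0.16 to 0.14. The negative value came from 1 run with 11 animals and a single upper animal, which had the lowest Ssrp1 of the upper level. Ssrp1 lost its call without the 2 animals farthest from the Cwc22 median (limma adjusted p = 0.155). It also lost it with the run of title numbers as a covariate (limma adjusted p = 0.0537), which left 2 genes within 10 Mb of Cwc22, and without run 1, 2, 3 or 5, at limma adjusted p of 0.446, 0.0570, 0.363 and 0.282, and with the normal score (0.267). The slope of Ssrp1 in these fits lay between 0.08 and 0.10.

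Ddb2, which recognises ultraviolet damage in DNA, fell with Cwc22. It lies at chr2:91211572-91236982, minus strand, 13.3 Mb from Cwc22. Lower animals ran from 0.49 through 1.45 to 2.07 and upper animals from 0.44 through 1.02 to 1.60. These ranges overlapped, and 15 of 19 upper animals were below the lower median. The slope was -0.15 ± 0.03 (SE, n = 92, limma adjusted p = 0.0204), with runs between -0.24 and 0.05. Ddb2 lost its call without the 2 farthest animals (limma adjusted p = 0.104), and without run 1, 2, 3 or 5 (limma adjusted p = 0.487, 0.0646, 0.0917 and 0.338) or with the normal score (0.470). Its slopes in these fits were -0.15, then -0.14, -0.15, -0.16 and -0.13, and -0.12 with the normal score. Ddb2 overlaps exons of Acp2 on the other strand, and no strand setting is given in the sources used here. Acp2 itself had a slope of 0.02 (limma adjusted p = 0.9998). Exons of Ssrp1 overlap those of P2rx3, which is not in the table.

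**Figure D2:**
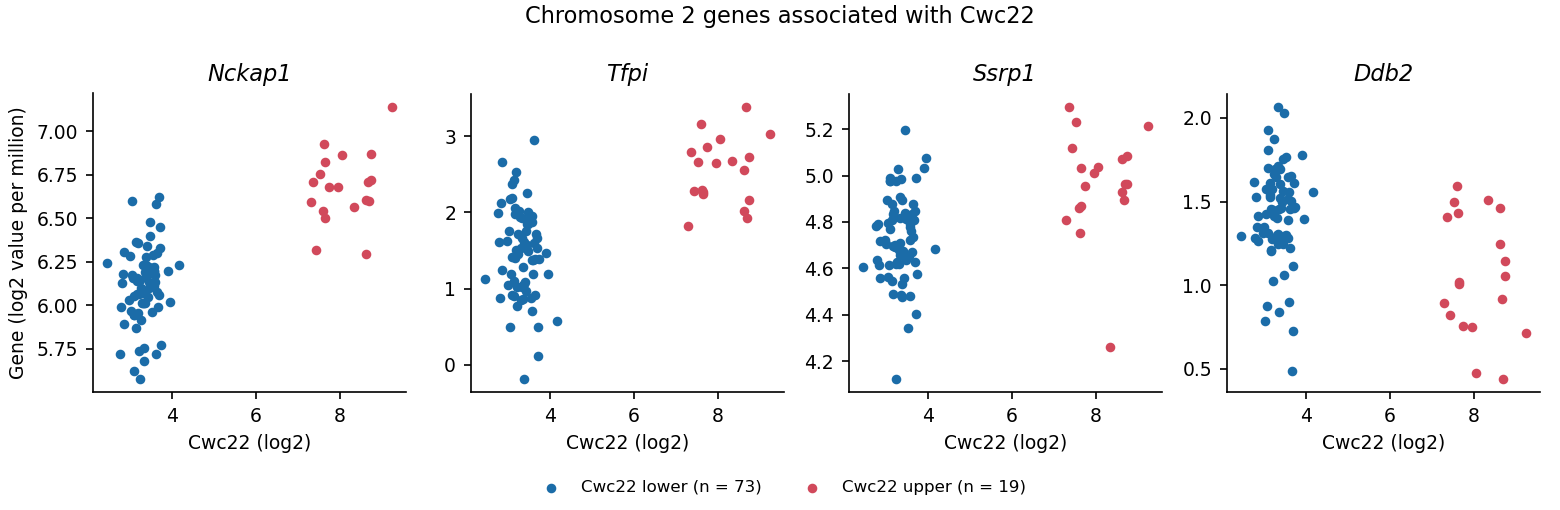
Log2 level (vertical axes) of the 4 chromosome 2 genes past the threshold against the log2 level of Cwc22 (horizontal axes), with 1 point per animal. Nckap1 and Tfpi are higher in the 19 upper animals, which all exceed the lower medians of 6.14 and 1.498, while Ssrp1 and Ddb2 overlap widely between the levels.

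Within 10 Mb of Cwc22, 3 of 91 measured genes were associated, which is 3.30% beside 0.0595% of all genes. At an unadjusted p under 0.05 there were 17 of the 91 (18.7%) beside 4.28%. The median slope of the 91 was -0.00. All 4 associated chromosome 2 genes lie on the side of higher coordinates. On that side, 6 of 9 genes within 5 Mb had an unadjusted p under 0.05, then 5 of 23 between 5 and 10 Mb and 8 of 54 between 10 and 20 Mb. On the side of lower coordinates the counts were 5 of 33, 1 of 26 and 1 of 29. Beyond 40 Mb the share was 2.83% of 778 genes, and on other chromosomes it was 4.23% of 12206. The difference between the sides was not tested. Of the genes in the table, 186 had no annotated position and are in none of the counts by distance or chromosome.

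**Figure D3:**
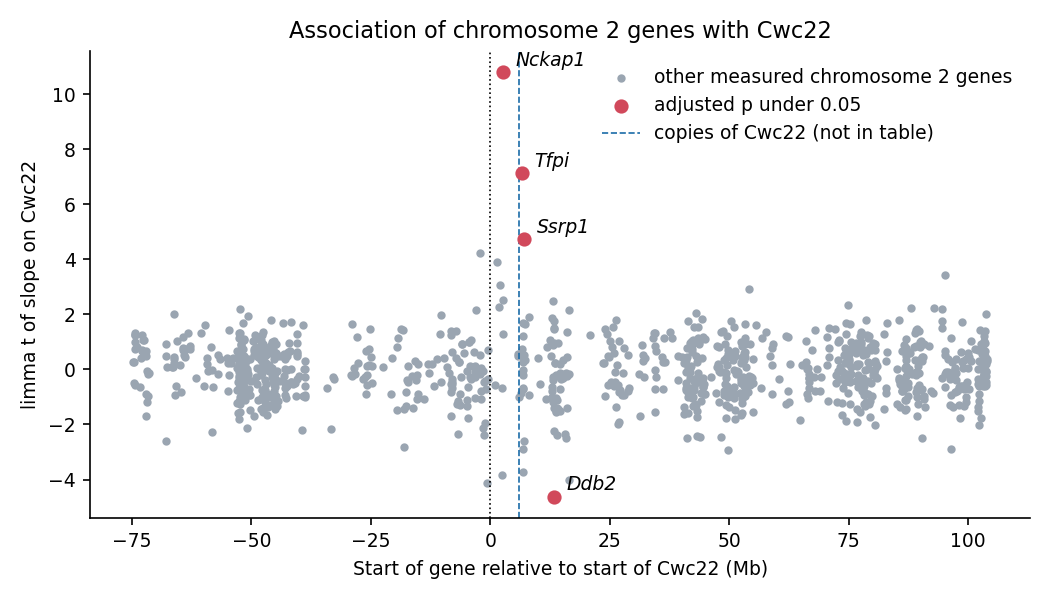
The limma t of the slope on Cwc22 (vertical axis) for 1048 chromosome 2 genes against the start of each gene relative to the start of Cwc22 in Mb (horizontal axis). The dotted line is Cwc22, the dashed line its chromosome 2 copies. The 4 genes past the threshold, Nckap1, Tfpi, Ssrp1 and Ddb2, start between 2.62 and 13.3 Mb from the start of Cwc22 on the side of higher coordinates.

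Of the 10 nearest measured genes on each side, Nckap1 alone passed the threshold. An unadjusted p under 0.05 was found for 9 of the 20 (45%), beside 4.28% of all genes. These were 6 of 10 on the side of higher coordinates, where 7 slopes were above 0, and 3 of 10 on the other side, where 1 slope was above 0. Zfp385b, a zinc finger gene 0.06 Mb away and the closest of all, had a slope of -0.02 ± 0.07 (SE). Ttn, the gene of the giant sarcomere protein titin, had a slope of -0.01 ± 0.02. Zc3h15, the measured gene nearest to the chromosome 2 copies among the 20 (0.29 Mb), had a slope of 0.01 ± 0.02.

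Several neighbours missed the threshold here and passed it under another setting. Itga4, the alpha 4 integrin of leukocytes and muscle precursors, lies 1.31 Mb away with a slope of 0.40 ± 0.10 (limma adjusted p = 0.162), and with the normal score of Cwc22 as predictor it passed (0.52 ± 0.10, limma adjusted p = 0.00182). Frzb, a secreted Wnt antagonist 2.47 Mb away, had a slope of -0.26 ± 0.07 (limma adjusted p = 0.200) and also passed with the normal score (-0.36 ± 0.06, limma adjusted p = 0.000537). Sestd1, 0.60 Mb away on the other side, had a slope of -0.10 ± 0.02 (limma adjusted p = 0.104). It passed with the first 3 principal components or with marker list scores as covariates (limma adjusted p = 0.0122 and 0.0145). E030042O20Rik, a gene model 2.17 Mb away on the same side as Sestd1, was named after its values were seen. Its log2 level ran from -2.38 through 0.07 to 1.74 in the lower and from 0.13 through 1.05 to 1.83 in the upper animals, which overlapped, and 19 of 19 upper animals were above the lower median. Its slope was 0.44 ± 0.10 (limma adjusted p = 0.0778), and it passed with the principal components (limma adjusted p = 0.0488) and on the log2(value + 1) scale (limma adjusted p = 0.0448). Itga4 shares exon sequence on the other strand with Cerkl, which is not in the table.

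The other 4 genes past the threshold lie on other chromosomes. Xdh codes for xanthine dehydrogenase, which makes uric acid at the end of purine breakdown, and lies at chr17:73883895-73950196. Its log2 level ran from 3.92 through 5.24 to 6.17 in the lower animals and from 5.45 through 6.26 to 6.97 in the upper animals. The ranges overlapped, and all 19 upper animals were above the lower median. The slope was 0.42 ± 0.05 (SE, n = 92, limma adjusted p = 5.35e-11), positive in 5 of 5 runs of title numbers.

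Gm42764, a gene model with only a provisional symbol at chr5:30759032-30760477, had the steepest slope of the 8 genes on the deposited log2 scale. With log2(value + 1) as response it had a slope of 0.40, beside 0.41 for Xdh. Its mean log2 level of -0.18 is below the limit of 1 set for naming genes of other chromosomes, so it was named after its values were seen. Lower animals ran from -2.41 through -0.39 to 1.11 and upper animals from 0.33 through 1.14 to 2.40. The ranges overlapped in 11 lower animals that exceeded the lowest upper animal. The slope was 0.75 ± 0.08 (SE, n = 92, limma adjusted p = 1.45e-10).

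Sirt5, a mitochondrial enzyme that removes succinyl and related groups from lysines, lies at chr13:43365496-43395203. It ran from 2.81 through 3.55 to 4.13 in the lower and from 3.56 through 3.95 to 4.41 in the upper animals. The ranges overlapped, with 19 of 19 upper animals above the lower median. The slope was 0.17 ± 0.03 (SE, n = 92, limma adjusted p = 4.47e-05), from 0.13 to 0.19 between runs. Sirt5 lost its call with the normal score as predictor (0.12, limma adjusted p = 0.168), and in the lower animals alone its slope was -0.16 ± 0.20. Haus7, a subunit of the augmin complex that branches spindle microtubules, lies at chrX:73437315-73459044 and fell with Cwc22. It ran from 1.23 through 2.37 to 3.69 in the lower and from 1.12 through 1.79 to 2.70 in the upper animals. These ranges overlapped, and 18 of 19 upper animals were below the lower median. The slope was -0.20 ± 0.04 (SE, n = 92, limma adjusted p = 0.0123), negative in 5 of 5 runs. The call for Haus7 was lost without run 1, 3 or 4, at limma adjusted p of 0.485, 0.0917 and 0.0742, and with the normal score (0.441). Its slopes in these fits were -0.18, -0.22, -0.20 and -0.15.

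**Figure D4:**
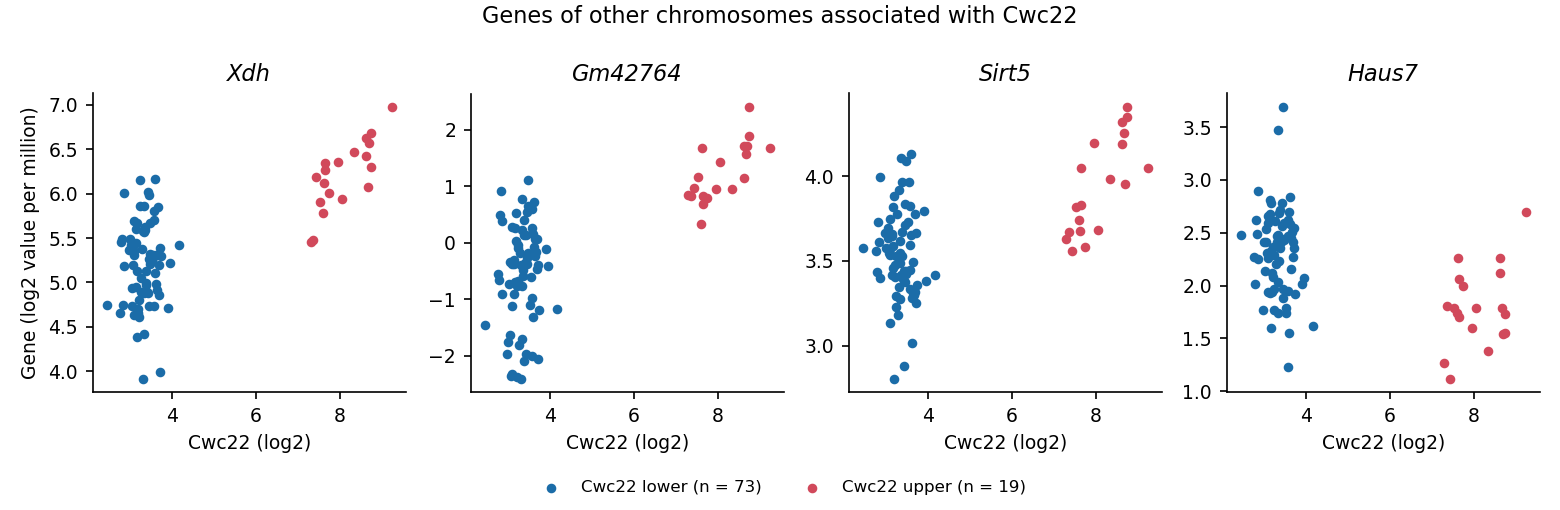
Log2 level (vertical axes) of the 4 genes of other chromosomes past the threshold against the log2 level of Cwc22 (horizontal axes), with 1 point per animal. Among the 19 upper animals, Xdh, Gm42764 and Sirt5 are higher where Cwc22 is higher, with r of 0.79, 0.72 and 0.77.

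Transcripts of 4 of the 8 genes share sequence with other genes, which makes their levels uncertain. Xdh shares at least 200 bases at 90% identity or more with 23 other genes, Sirt5 with 22, Gm42764 with 13 and Ddb2 with 1 (442 bases at 100% identity). Gm42764, 741 bases long, and a retained-intron transcript of Xdh share 462 bases at 98.7% identity on opposite strands. None of the 8 genes shares such a stretch with Cwc22, and Nckap1, Tfpi, Ssrp1 and Haus7 share none with any other gene. Whether shared sequence takes part in these associations was not tested.

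The relation inside each level was examined for the 20 nearest genes and the other 7 genes past the threshold, 54 relations in all, by a two-sided permutation test with 100000 resamples and Benjamini-Hochberg adjustment over the 54. In the 19 upper animals, Xdh, Sirt5 and Gm42764 followed Cwc22 by this test. These genes were examined because their slopes had passed the threshold over all animals, the upper ones included. Their permutation p-values, here and below, take no account of that choice. By limma in the upper animals alone, their adjusted p over all genes was 0.118, 0.395 and 0.49, so none passed there. For Xdh, Pearson's r was 0.79 (permutation p = 4e-05, adjusted 0.00108) and Spearman's rho 0.78 (permutation p = 0.00016, adjusted 0.00248). Without the 2 animals farthest from the level median, r was 0.74 (permutation p = 0.00059). The upper animal lowest in Cwc22, at 7.30, had the lowest Xdh of its level, 5.45, and the animal highest in Cwc22, at 9.24, had the highest, 6.97.

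Sirt5 had r = 0.77 in the upper animals (permutation p = 0.00025, adjusted 0.00337) and rho = 0.78 (permutation p = 0.00023, adjusted 0.00248), and r was 0.80 without the 2 farthest animals. Gm42764 had r = 0.72 (permutation p = 0.0006, adjusted 0.00648) and rho = 0.70 (permutation p = 0.00114, adjusted 0.0103), and r was 0.68 without those animals. With the means of the title-number runs removed, the adjusted permutation p was 0.00418 for Xdh, 0.0027 for Sirt5 and 0.00324 for Gm42764. In the 73 lower animals r was 0.05 for Xdh, -0.10 for Sirt5 and 0.10 for Gm42764. The difference between the levels did not pass for any of them as a limma interaction across all genes: the slopes differed by 0.87 ± 0.47 for Xdh (adjusted p = 0.750), 0.88 ± 0.27 for Sirt5 (adjusted p = 0.521) and 0.66 ± 0.88 for Gm42764 (adjusted p = 0.919).

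In the 73 lower animals, 3 other genes followed Cwc22, all within 2.47 Mb on the side of higher coordinates. Most genes tested here were chosen as the nearest ones, so this nearness was largely set by the choice. Frzb fell with Cwc22, with r = -0.49 (permutation p = 2e-05, adjusted 0.00108), rho = -0.52 (permutation p = 1e-05, the smallest these permutations can give, adjusted 0.00054) and r = -0.53 without the 2 farthest animals. Dnajc10, a disulfide reductase of the endoplasmic reticulum, fell as well, with r = -0.44 (permutation p = 8e-05, adjusted 0.00144), rho = -0.43 (permutation p = 0.00019, adjusted 0.00248) and r = -0.46 without those animals. Itga4 rose, with r = 0.40 (permutation p = 0.00075, adjusted 0.00675), rho = 0.44 (permutation p = 7e-05, adjusted 0.00189) and r = 0.46 without them. With run means removed, the adjusted permutation p was 0.00414 for Frzb, 0.0232 for Dnajc10 and 0.0152 for Itga4. In the upper animals r was 0.22, -0.07 and -0.03 for Frzb, Dnajc10 and Itga4. As a limma interaction over all genes, the difference between the levels did not pass for any of them (adjusted p = 0.189, 0.591 and 0.591). By limma in the lower animals alone, their adjusted p over all genes was 0.071, 0.242 and 0.366.

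Nckap1 and Tfpi did not pass inside either level. Nckap1 had r = 0.20 in the lower (permutation p = 0.0848, adjusted 0.302) and 0.26 in the upper animals (permutation p = 0.279, adjusted 0.580). Tfpi had r = -0.18 in the lower (permutation p = 0.117, adjusted 0.320) and 0.16 in the upper animals (permutation p = 0.520, adjusted 0.842). Across all 13440 genes, limma called 0 genes in the upper animals (675 at an unadjusted p under 0.05, 5.02%) and 0 in the lower animals (878, 6.53%). The limma interaction of slope and level gave 0 genes (898 unadjusted, 6.68%). With the level itself as a covariate limma called 0 genes (596 unadjusted, 4.43%). The slopes were then 0.23 ± 0.11 for Nckap1, 0.58 ± 0.24 for Xdh, 0.89 ± 0.44 for Gm42764 and 0.27 ± 0.14 for Sirt5, beside 0.24, 0.42, 0.75 and 0.17 without it. Their unadjusted limma p was 0.0465, 0.0170, 0.0437 and 0.0633. The slope of Tfpi turned to -0.25 ± 0.30 from 0.42 and that of Haus7 to 0.05 ± 0.22 from -0.20, while Ssrp1 had 0.05 ± 0.10 and Ddb2 -0.12 ± 0.17.

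Counts of genes of the splicing machinery associated with Cwc22 were near the shares over all genes. By limma, 0 of 102 measured splicing factors (of 103 listed) passed, beside 0.0595% of all genes. At an unadjusted p under 0.05 there were 4 of 102, beside 4.28% of all genes. All 4 were negative: Cwc15, Ppie and Syf2 of the Prp19 complex and its catalytic-step partners, and Sf3b2 of the U2 particle. Their slopes were -0.03 ± 0.01, -0.04 ± 0.02, -0.04 ± 0.02 and -0.04 ± 0.02 (SE). The median slope of the 102 was -0.01, beside -0.00 over all genes.

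The core of the exon junction complex is where Cwc22 acts. Eif4a3, the helicase that Cwc22 binds, had log2 levels from 3.80 through 4.33 to 5.18 in the lower and from 3.88 through 4.45 to 4.67 in the upper animals, and these overlapped. Its slope was 0.02 ± 0.03 (95% interval -0.03 to 0.07). Magoh and Rbm8a, which form the clamp on Eif4a3, had slopes of 0.01 ± 0.02 and -0.02 ± 0.02, and Casc3, the fourth core protein, had 0.00463 ± 0.02. The list of exon junction and NMD genes had 0 of 23 past the threshold by limma, beside 0.0595% of all genes, and 0 unadjusted, beside 4.28%. Its slopes ran from -0.05 (the NMD nuclease Smg6) to 0.06 (the cap-binding protein Ncbp2).

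Among the other lists, limma called 0 of 34 genes of the Prp19 complex and step factors (3 unadjusted), 0 of 15 of U5 and the tri-snRNP (0 unadjusted), 0 of 23 of U1 and U2 (1 unadjusted) and 0 of 7 Sm genes (0 unadjusted). Of transcripts known to be NMD targets, limma called 0 of 16 (0 unadjusted), with slopes from -0.11 (Gadd45a, a stress-response gene) to 0.06 (Tbl2). Beside these counts, the shares over all genes were 0.0595% called and 4.28% unadjusted, so lists this small would rarely hold a called gene. The widest 95% interval over the 102 measured splicing factors reached 0.09 on either side of its slope, and all 102 intervals lay between -0.11 and 0.11. The slope of Nckap1, 0.24, lies above them. Intervals of the 16 measured NMD targets lay between -0.28 and 0.13, and the widest reached 0.17 on either side of its slope. These values are gene levels, so the use of splice sites was not measured.

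**Figure D5:**
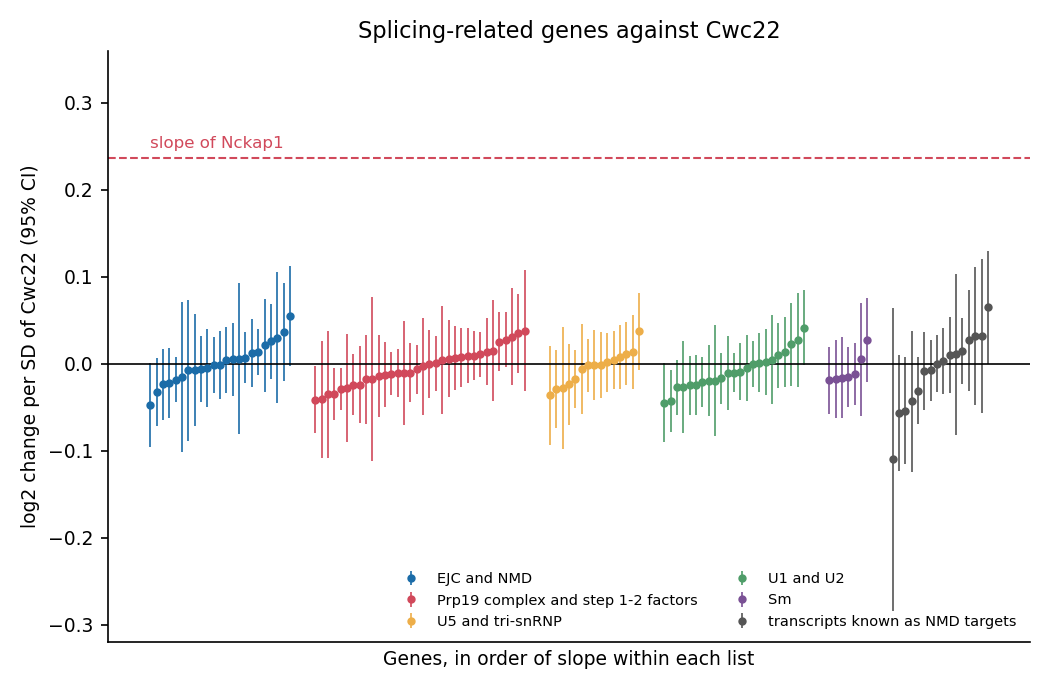
Slope on Cwc22 (log2 difference per SD of Cwc22, vertical axis) with its 95% interval for 118 splicing-related genes, in order of slope within each list (horizontal axis). Each point is 1 gene, the dashed line is the slope of Nckap1 (0.24), and all slopes in the lists lie between -0.11 and 0.06.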

How the data were processed

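The authors deposited 1 table of log2 expression values for 92 quadriceps samples. Its unit was read from the values, whose antilogs summed to between 898071 and 1140761 per library, so depth is unknown. Per the labels' protocols, 500 ng of RNA went into each KAPA mRNA HyperPrep library. The submitters' processing notes name bcl2fastq, MultiQC, kallisto 0.50.1, edgeR and build mm10, and the steps between them are not given in the sources used here. Of 13456 lines, 15 repeats were removed. Cwc22 and the gene lists were chosen with earlier results of these data known. The levels were split at the widest step with at least 5 animals on each side. Every other gene was regressed on standardised Cwc22 with limma 3.58.1 (R 4.3.3, mean-variance trend), with Benjamini-Hochberg adjustment over 13440 genes and a threshold of 0.05. The fit had been tested on simulated data. Relations inside levels used permutation tests (numpy 2.4.6). Named genes were the 10 nearest measured on each side, up to 10 chromosome 2 genes and up to 10 others with the largest limma t past the threshold and a mean of at least 1, and the exon junction core. Similar transcripts were found with blastn 2.17.0 in GENCODE M21, which shares the build of the notes. Animals with the same tissue and diet were treated as separate samples, since the labels name no litter, and p-values measure the spread between them.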

Additional observations from a re-analysis of the deposited data

How the results depend on the processing

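The split into 73 and 19 animals was the same with a Gaussian mixture, on the log2(value + 1) scale (step 3.08) and after run means were removed (step 2.63). The 8 associated genes became 0 with the level as covariate and within the upper or the lower animals alone, where the range of Cwc22 is small. With the level as covariate the slopes of Nckap1, Xdh, Gm42764 and Sirt5 were 0.23, 0.58, 0.89 and 0.27, with larger standard errors. There were 5 genes without title-number run 1 or run 3 (added after the data were seen, as were the fits within levels). Other settings gave between 6 and 11 genes. Xdh, Nckap1 and Gm42764 passed with the normal score of Cwc22 as predictor (6 genes), where the other 5 did not, while Itga4, Frzb and Gpn1 passed there in addition. Neighbours within 10 Mb numbered 2 with the run as covariate, where Ssrp1 lost its call, 5 with the first 3 principal components as covariates and 0 with the level as covariate or within either level, and within 5 Mb there was 1. Slopes changed sign for Tfpi (-0.25 with the level as covariate, -0.70 in the lower animals), Sirt5 (-0.16 in the lower animals), Haus7 (0.0542 with the level as covariate, 0.47 in the upper animals), Ssrp1 (-0.00769 in the upper animals) and Ddb2 (0.00471 in the lower animals). The cause was not tested. Relations inside the lower level past the threshold numbered 3 by r, 5 by rho, 6 without the 2 farthest animals and 5 with run means removed, and those in the upper level were Xdh, Gm42764 and Sirt5 each time. Splicing genes gave 0 under every setting run. Depth is unknown, 19 upper animals limit the relations inside that level, and run and level were not crossed evenly. No paired analysis was possible because the labels give 1 group and no replicate pairs.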

Other observations

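Within the upper animals, Stat5b, a transcription factor of growth hormone signalling, had the smallest limma p of all 13440 genes tested. It was named after its values were seen, so the slopes below are those of a gene picked as an extreme in the upper animals. Its slope there was -0.62 ± 0.10 (SE, n = 19, limma adjusted p = 0.0748), against 0.51 in the 73 lower animals (limma adjusted p = 0.691). The difference between these slopes was -1.13 ± 0.26 (limma interaction, adjusted p = 0.0927), and none of these values passed the threshold. Across all 92 animals its slope was -0.02.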
